A study of Mus musculus with 24 samples.

Results

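The genes described here are 10 genes for the cytoskeleton of blood stem cells and megakaryocytes, the bone marrow cells that shed platelets. They are the myosin genes Myh9, Myl9 and Myl10, the tubulin gene Tubb1, the actin-binding genes Flna, Actn1 and Gsn, the adhesion genes Tln1 and Zyx and the filament gene Vim. They were named by symbol, and all 10 were found among the 24438 genes of the count table that carry a symbol. They were chosen by values measured in these libraries, among them the level of Myl10 in stem cells of each line and the levels of the genes from population to population. Those values, and every contrast that holds a difference between LTHSC of the lines, are therefore given as a description. Where members called by the fit over all genes are counted for them, the share of all genes called stands beside the count and nothing is read from it.

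RNA was sequenced from 3 populations that were flow-sorted from mouse bone marrow: LTHSC (long-term stem cells), preMegE (a progenitor of red cells and megakaryocytes) and MkP (megakaryocyte progenitors). The mice were C57BL/6N, tamoxifen had been given on 5 days, and cells were sorted after a further 12 weeks. In the KI line, the labels give a mouse Jak2 knock-in with Scl-Cre. In the E12 line they give Scl-Cre and Exon12, and in the VF line Vav1-Cre and V617F, both of them known as mutations of the kinase JAK2 in human blood cancers. The series design speaks of strains with wild-type and mutant JAK2 without tying each to a line, so KI serves here only as the reference. The Cre driver differs between VF and the other lines, so the driver and the mutation cannot be told apart in comparisons with VF. LTHSC and MkP were taken from all 3 lines and preMegE from KI and VF, with 3 libraries in each of 8 groups. The labels do not say whether those 3 libraries are separate animals, so p-values measure the spread between libraries, which may be technical.

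Nonmuscle myosin II is a motor of paired heavy chains, each with an essential and a regulatory light chain, that pulls on actin filaments. In megakaryocytes this motor and its actin network control when proplatelets are released, while bundled microtubules built with beta-1 tubulin push the proplatelets out and form the ring of the platelet. Talin and filamin tie integrins and the platelet receptor for von Willebrand factor to actin.

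The upstream sequences of the regulatory light chain genes Myl10 and Myl9 are shown first, because Myl10 is the gene with the widest range of levels and Myl9 is the light chain gene usually linked to megakaryocytes. Both were read from the RefSeq promoter table of GRCm38.p6, 5′ to 3′ on the plus strand. The Myl10 piece, chr5:136692896-136693145, ends directly before the first of 3 starts listed for the gene and lies inside the gene's RefSeq span. The Myl9 piece, chr2:156775214-156775407, ends directly before that gene's RefSeq span. Capitals mark an ETS motif and then a GATA motif in Myl10, both read on the minus strand, and a CArG box, the motif of serum response factor, in Myl9.
Myl10: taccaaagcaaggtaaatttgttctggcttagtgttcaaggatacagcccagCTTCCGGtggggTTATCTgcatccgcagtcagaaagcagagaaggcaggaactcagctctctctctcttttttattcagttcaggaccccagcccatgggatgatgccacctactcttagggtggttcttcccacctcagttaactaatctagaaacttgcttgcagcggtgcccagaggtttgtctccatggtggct
Myl9: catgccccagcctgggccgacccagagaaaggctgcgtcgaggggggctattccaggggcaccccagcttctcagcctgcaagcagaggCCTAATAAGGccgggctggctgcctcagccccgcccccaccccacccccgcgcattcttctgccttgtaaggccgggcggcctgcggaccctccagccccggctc

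The 10 genes had 14 promoter windows in that table, each running from 250 bases before to 50 bases after a start, and 5 motifs were searched on both strands. A CArG box stood in 1.629% of all 32851 windows and, among these genes, in Myl9. The ETS letters CCGGAAG stood in 8.858% of windows, and a GATA motif in 29.76%. The GATA letters searched were AGATAA and its variant with a first T (TGATAA), each also with a last G in place of A (AGATAG, and with the first T, TGATAG). Myl10 held both. The letters TGAGTCA, the core shared by AP-1 and NF-E2, stood in 5.202% of windows and in Zyx. The RUNX letters TGTGGT stood in 16.76% of windows and in Gsn. A match describes the letters of the window and not the binding of a factor.

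Libraries held 10357597 to 29688389 counts. Levels are given as CPM, read counts scaled by library size with TMM factors over all 24 libraries, and levels of different genes are compared only as FPKM, which also divides by the deposited gene length. Jak2 averaged 94.3 ± 9.45 CPM in VF and 55.2 ± 12.9 in KI in LTHSC (SD, n = 3 each, exact 2-sided permutation p = 0.1, the smallest that 3 against 3 allows). The level of Jak2 does not show which allele a library carries. In the MkP, 16 megakaryocyte markers summed to 3808 to 16675 CPM against 611 to 2060 in LTHSC, and 12 stem cell markers summed to 1741 to 3243 CPM in LTHSC against 503 to 1318 in MkP. Within their populations, 4 libraries had a TMM factor under 0.8, which means that a few genes took much of the counts: MkP KI 5 and 6, preMegE KI 1 and LTHSC E12 4. The 12 lymphoid markers, led by Nkg7, summed to 4881 and 6576 CPM in MkP KI 5 and 6, where 9 and 6 of the 12 were at 0, against 350 to 667 CPM in the other MkP. They summed to 3011 CPM in preMegE KI 1 against 511 to 1129 in the other preMegE. The 15 neutrophil and monocyte markers summed to 28430 CPM in LTHSC E12 4 against 794 to 3498 in the other LTHSC. The 12 stem cell markers summed to 1741 CPM in LTHSC E12 4 against 2427 to 3243 CPM in the other LTHSC. In MkP KI 5 and 6 they summed to 632 and 503 CPM against 1108 to 1318 CPM in the other MkP. The 9 mast cell and basophil markers separated MkP of KI from the other lines in every library, at 306, 1037 and 761 CPM in KI 4, 5 and 6 against 67.6 to 192 CPM in E12 and VF. They stood at 765 CPM in LTHSC E12 4 against at most 37.1 CPM in the other LTHSC. The part of these markers in the differences of Myl10, Gsn, Vim and Myh9 and in the other results was not tested. Values of the members without the libraries of low TMM factor are given for some comparisons only. The absence of such a value does not mean that it stayed the same. In bulk RNA of sorted cells, fewer cells of a type and less RNA per cell cannot be told apart.

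**Figure D1:**
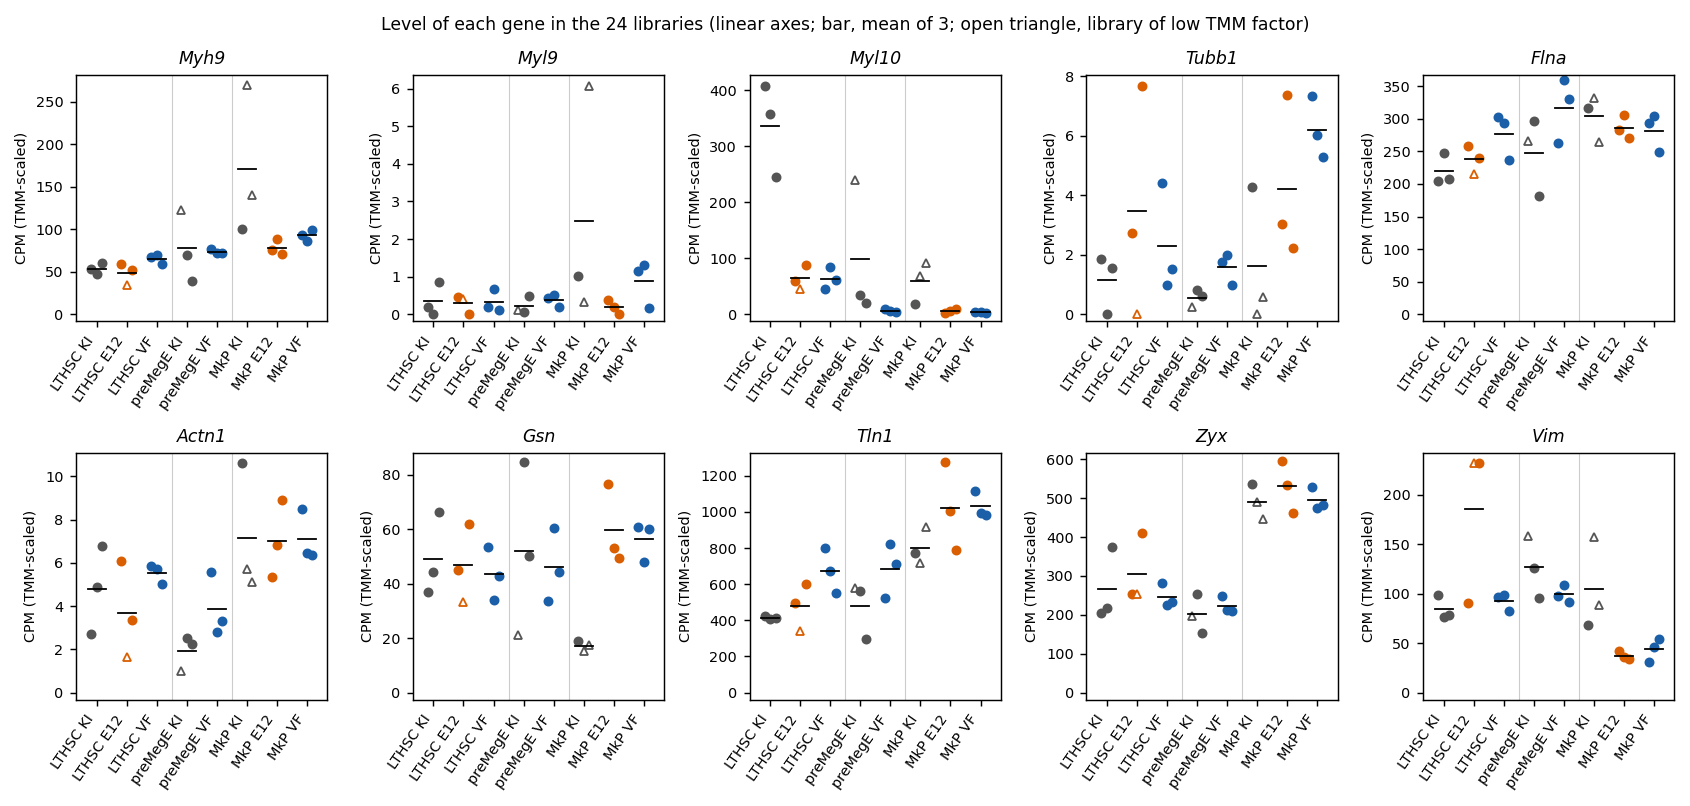
CPM of the 10 genes (y axes, linear) in the 24 libraries by population and line (x axes); points are libraries, bars are means of 3 and open triangles are the 4 libraries of low TMM factor. Myl10 is highest in LTHSC of KI, between 245 and 408 CPM, while Flna stays between 182 and 359 CPM in every library.

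Myl10 was the member whose level differed most between groups. The gene lies at chr5:136688892-136701857 and codes for a regulatory myosin light chain first described in precursor lymphocytes. In LTHSC it was at 408, 358 and 245 CPM in KI 1, 2 and 3. In LTHSC of E12 it was at 88.6, 59.8 and 44.3 CPM in libraries 11, 2 and 4, and in VF at 44.7, 84.3 and 61.0 CPM in libraries 1, 2 and 3. Every KI library was above every library of the other lines, and E12 and VF overlapped throughout. The log2 difference from KI was -2.44 (SE 0.33) in VF and -2.42 (SE 0.33) in E12, which is a level 0.184 and 0.187 times that of KI. The log2 difference of VF from E12 was -0.03 (SE 0.32).

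Further along the path Myl10 was lower still, and the same order of lines was seen. In preMegE of KI it was at 240, 35.1 and 19.6 CPM in libraries 1, 2 and 3, and in VF at 9.50, 6.45 and 3.58 CPM. No VF library reached the lowest KI library, and KI 1, at 240 CPM, was the library of low TMM factor. In preMegE, 15 neutrophil and monocyte markers also separated the lines, at 8957 to 20131 CPM in VF against 3224 to 4388 CPM in KI, and their part in the preMegE differences was not tested. The log2 difference was -3.93 (SE 0.93; edgeR adjusted p = 0.587), and without KI 1 it was -2.07 (SE 0.44; adjusted p = 0.0567). In MkP of KI, libraries 4, 5 and 6 held 18.9, 69.1 and 91.5 CPM. MkP of E12 held 2.39, 6.10 and 9.09 CPM in libraries 2, 4 and 5, and MkP of VF held 4.78, 3.25 and 2.36 CPM. All 3 KI libraries were again above all others. The log2 differences were -4.22 (SE 0.70; edgeR adjusted p = 0.0755) for VF and -3.47 (SE 0.67; adjusted p = 0.0616) for E12, so neither passed the threshold of 0.05. Without MkP KI 5 and 6 they were -2.47 (SE 0.57; adjusted p = 0.112) and -1.72 (SE 0.58; adjusted p = 0.267), with 1 KI library left. Without MkP KI 4 they were -4.65 (adjusted p = 1.2e-05) and -3.90 (adjusted p = 3.5e-05).

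The range of Myl10 over the 8 group means was 6.59 on the log2 scale, percentile 99.0 of the 14965 genes tested. It holds levels known when the genes were chosen, so its rank is a description. The share of Myl10 in the regulatory light chains does not depend on the scaling of a library. Of the summed FPKM of Myl9, Myl10, Myl12a and Myl12b, a family taken up after values were seen, Myl10 made up 35.5% ± 4.20 in LTHSC of KI (SD, n = 3), 7.84% ± 4.36 in E12 and 9.64% ± 2.72 in VF. In MkP it made up 4.35% ± 0.66 in KI, and the KI libraries of low TMM factor, at 5.07% and 4.22%, lay close to KI 4 at 3.76%. It made up 0.936% ± 0.466 in MkP of E12 and 0.514% ± 0.206 in MkP of VF. In preMegE the share was 7.89% ± 6.44 in KI and 1.05% ± 0.36 in VF. The KI shares were above those of the other lines without overlap in all 3 populations. Most of the remainder was Myl12b, with a median of 444 FPKM in LTHSC, and Myl12a, with 159 FPKM. No stretch of 50 bases of a Myl10 transcript occurs in a transcript of another gene. Of such stretches of Myl12a and Myl12b, 16.4% and 19.1% also occur in another gene, mostly in each other. The treatment of multiply mapped reads is not given, so the summed FPKM and the Myl10 shares may depend on it.

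**Figure D2:**
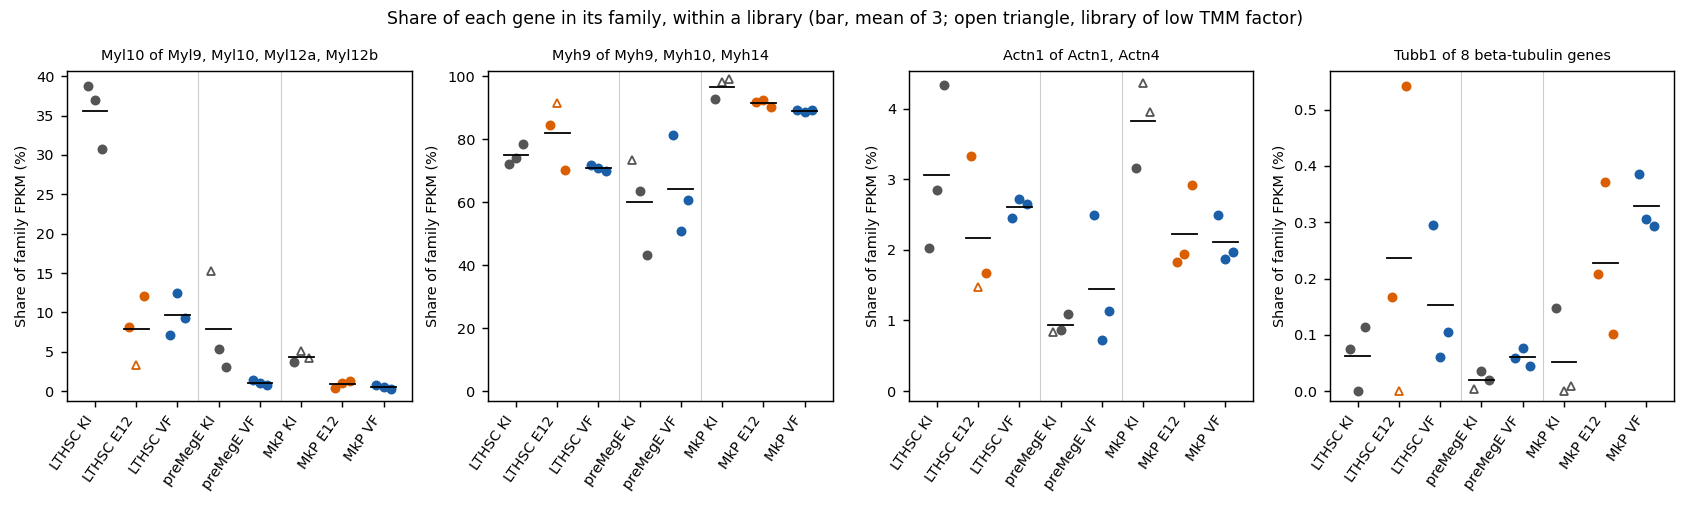
Share of Myl10, Myh9, Actn1 and Tubb1 in the summed FPKM of their families (y axes, percent) by population and line (x axes); points are libraries, bars are means of 3 and open triangles are the 4 libraries of low TMM factor. Myl10 falls from a mean of 35.5% in LTHSC of KI to 0.514% in MkP of VF, and Tubb1 stays under 0.6%.

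Myl9, the light chain gene best known from smooth muscle and platelets, was close to the detection limit. The gene lies at chr2:156775408-156781657. It was at 0 to 0.859 CPM in LTHSC, 0.0685 to 0.523 CPM in preMegE and 0 to 6.07 CPM in MkP. The top value came from MkP KI 6, which held 75 counts, and the other MkP libraries held 0 to 34 counts. Myl9 made up at most 0.263% of regulatory light chain FPKM in any library. No difference of Myl9 between lines passed the test, and the SE of its log2 differences ran up to 1.60 within a population.

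Myh9, the heavy chain of nonmuscle myosin IIA and the gene mutated in MYH9-related large-platelet disorder, lies at chr15:77760585-77842175. In LTHSC it was at 52.8, 47.6 and 60.7 CPM in KI 1, 2 and 3, at 52.3, 58.6 and 35.0 CPM in E12 11, 2 and 4, and at 67.0, 69.5 and 59.5 CPM in VF 1, 2 and 3. In preMegE it was at 123, 69.7 and 39.7 CPM in KI and at 77.0, 72.0 and 72.0 CPM in VF. In MkP it was at 101, 270 and 141 CPM in KI 4, 5 and 6, at 75.4, 88.4 and 71.5 CPM in E12 2, 4 and 5, and at 93.6, 85.8 and 99.4 CPM in VF 1, 2 and 3. The MkP of KI were above both other lines without overlap, by a narrow margin for KI 4. The log2 difference in MkP was -0.98 (SE 0.35; edgeR adjusted p = 0.119) for VF against KI and -1.24 (SE 0.35; adjusted p = 0.0671) for E12 against KI. Without MkP KI 5 and 6 it was -0.14 (SE 0.18; adjusted p = 0.843) and -0.40 (SE 0.18; adjusted p = 0.437), and without MkP KI 4 it was -1.25 (adjusted p = 0.00112) and -1.52 (adjusted p = 0.000285).

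Myh9 was the main nonmuscle heavy chain in MkP. Of the FPKM of Myh9, Myh10 and Myh14 it made up 88.6% to 99.0% in MkP, 43.4% to 81.3% in preMegE and 69.8% to 91.4% in LTHSC. In MkP the mean share was 96.6% ± 3.42 in KI, 91.5% ± 1.21 in E12 and 89.1% ± 0.38 in VF (SD, n = 3 each). The KI libraries of low TMM factor, 5 and 6, were at 98.1% and 99.0%. KI 4, at 92.7%, lay close to the highest E12 library, at 92.5%. KI against either line, and VF against E12 as well, gave an exact 2-sided permutation p = 0.1, the smallest possible. After adjustment over 28 such tests of family shares each was 0.215. Myh10, the heavy chain of nonmuscle myosin IIB, had a median of 6.10 FPKM in preMegE, 2.17 in LTHSC and 1.05 in MkP. Of the 50-base stretches of Myh9 transcripts, 0.68% also occur in another gene, mostly Myh10 and Myh11.

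Tubb1, the beta-1 tubulin of platelets, was low even in MkP. The gene lies at chr2:174450595-174458380. In LTHSC it was at 1.85, 0 and 1.56 CPM in KI, at 7.68, 2.75 and 0 CPM in E12 11, 2 and 4, and at 4.42, 0.976 and 1.51 CPM in VF. In preMegE it was at 0.252, 0.822 and 0.604 CPM in KI and at 1.75, 2.00 and 0.993 CPM in VF, without overlap. In MkP it was at 4.28, 0 and 0.566 CPM in KI 4, 5 and 6, at 3.02, 7.37 and 2.21 CPM in E12 2, 4 and 5, and at 7.33, 6.03 and 5.27 CPM in VF 1, 2 and 3. VF was above KI in MkP without overlap, while E12 overlapped both. The lowest KI values were those of the libraries of low TMM factor, and MkP KI 5, with 0 counts, can hold up to 0.503 CPM, the level of 3 counts. The log2 difference of VF from KI was 1.44 (SE 0.81; edgeR adjusted p = 0.642) in preMegE and 1.79 (SE 1.01; adjusted p = 0.270) in MkP. Without MkP KI 5 and 6 the MkP value was 0.51 (SE 0.64; adjusted p = 0.836), and without MkP KI 4 it was 4.04 (adjusted p = 0.00387).

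Tubb1 made up at most 0.542% of the summed FPKM of 8 beta-tubulin genes. The main beta-tubulins were Tubb5, with a median of 756 FPKM in MkP, and Tubb4b, with 210 FPKM, beside 2.14 FPKM for Tubb1. The sum of megakaryocyte markers was highest in MkP KI 6, at 16675 CPM, of which Pf4 alone held 13476. Tubb1 was at 0.566 CPM in that library, which is of low TMM factor. Gp9, at 288 CPM, and Gp1bb, at 997, were also highest there among MkP. Itga2b went the other way, at 616 CPM there. In MkP KI 4 and 5 it was at 873 and 597 CPM. MkP of E12 and VF held 1334 to 1810 CPM, above every KI library. The part of this marker in the differences between lines was not tested.

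Among the actin-binding genes, filamin A was steady and alpha-actinin 1 was low. Flna, which crosslinks actin and anchors the von Willebrand factor receptor, lies at chrX:74223461-74249854. Its group means ran from 219 ± 24.2 CPM in LTHSC of KI to 317 ± 49.7 CPM in preMegE of VF (SD, n = 3). Its range over group means, 0.53 on the log2 scale, was at percentile 2.41 of the genes tested, again as a description. Flna made up 87.6% to 99.1% of filamin FPKM. Its largest log2 difference between lines within a population was 0.34 (SE 0.42; edgeR adjusted p = 0.821), for VF against KI in preMegE.

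Actn1, which bundles actin and is mutated in an inherited low platelet count, lies at chr12:80167542-80260420. It was at 2.71, 4.88 and 6.76 CPM in LTHSC of KI, at 3.37, 6.07 and 1.62 CPM in E12 11, 2 and 4, and at 5.85, 5.71 and 5.01 CPM in VF. In preMegE it was at 1.01, 2.54 and 2.24 CPM in KI and at 5.56, 2.79 and 3.30 CPM in VF. The VF libraries of preMegE were all above KI, with a log2 difference of 0.97 (SE 0.63; edgeR adjusted p = 0.650). The MkP lines overlapped: KI averaged 7.14 ± 3.02 CPM, E12 7.02 ± 1.79 CPM and VF 7.10 ± 1.20 CPM (SD, n = 3 each). Actn4, the other nonmuscle alpha-actinin, was far more abundant, with a median of 84.7 FPKM in MkP against 1.72 FPKM for Actn1. As a share of both, Actn1 in MkP was 3.83% ± 0.61 in KI, 2.23% ± 0.60 in E12 and 2.11% ± 0.33 in VF. The difference of either line from KI had an exact permutation p = 0.1, the smallest possible, and 0.215 after adjustment. In KI 5 and 6, of low TMM factor, the share was 4.36% and 3.96%, and both genes summed to 35.0 and 34.5 FPKM. They summed to 89.7 FPKM in KI 4 and to 78.3 to 94.0 FPKM in E12 and VF. The share in KI 4, 3.16%, lay close to E12 5 at 2.92%.

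Gsn, gelsolin, severs and caps actin filaments. The gene lies at chr2:35256359-35307902, and RefSeq places Gm39795 over part of it. In MkP it was at 18.8, 15.3 and 17.6 CPM in KI 4, 5 and 6, at 76.7, 53.0 and 49.4 CPM in E12 2, 4 and 5, and at 60.7, 48.0 and 60.0 CPM in VF 1, 2 and 3. The 3 KI libraries lay close together, the library of ordinary TMM factor among them, and every library of the other lines was higher. The log2 difference from KI was 1.62 (SE 0.26; edgeR adjusted p = 0.0755) in VF and 1.69 (SE 0.26; adjusted p = 0.0616) in E12, so neither passed the threshold. Without MkP KI 5 and 6, the values were 1.56 (SE 0.29; adjusted p = 0.0488) and 1.63 (SE 0.29; adjusted p = 0.0281). That fit has KI 4 as its only KI library and assumes that it varies like the other groups. Without KI 4 they were 1.65 (adjusted p = 0.000254) and 1.72 (adjusted p = 0.000183). VF and E12 overlapped, with a log2 difference of -0.07 (SE 0.25; adjusted p = 1).

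In the other populations Gsn did not separate the lines. It was at 36.9, 44.4 and 66.3 CPM in LTHSC of KI, at 61.8, 45.0 and 33.4 CPM in E12 11, 2 and 4, and at 53.6, 33.9 and 42.8 CPM in VF. In preMegE it was at 21.1, 84.6 and 50.3 CPM in KI and at 33.8, 60.4 and 44.4 CPM in VF. The lines overlapped in both populations, and preMegE KI 1, of low TMM factor, was the lowest there.

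Tln1, talin 1, links integrins to actin and switches the platelet integrin to its binding form. The gene lies at chr4:43531513-43562583. In LTHSC it was at 422, 406 and 412 CPM in KI, at 601, 495 and 342 CPM in E12 11, 2 and 4, and at 798, 671 and 553 CPM in VF. Every VF library was above every KI library, where 30.9% of all genes did not overlap, and the log2 difference of VF from KI was 0.67 (SE 0.24), which did not pass. The megakaryocyte markers moved with it, at 1676 to 2022 CPM in VF and 1210 to 1421 CPM in KI, and their part was not tested. In MkP it was at 772, 719 and 917 CPM in KI, at 1278, 1008 and 788 CPM in E12, and at 1117, 994 and 983 CPM in VF. The VF libraries were above those of KI there too without overlap, with a log2 difference of 0.27 (SE 0.37; edgeR adjusted p = 0.646) that turned to -0.19 with the replicate number as a block, although KI and VF share no number in MkP. In preMegE, where KI held 298 to 580 CPM and VF 521 to 824 CPM, the lines overlapped. Talin 2 was nearly absent, so Tln1 made up 99.5% to 100% of talin FPKM.

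Zyx, zyxin, gathers at adhesion sites and stretched actin fibres. The gene lies at chr6:42349511-42360213, and Epha1 overlaps its span, so without a stated strand setting reads of the 2 genes there may not be told apart. In LTHSC it ranged from 205 to 410 CPM with a median of 253, in preMegE from 154 to 253 with a median of 211, and in MkP from 445 to 595 with a median of 491. No MkP library overlapped either other population. Between lines within a population the log2 difference of Zyx was at most 0.32 in size, for VF against E12 in LTHSC (-0.32, SE 0.29).

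Vim, vimentin, forms intermediate filaments and lies at chr2:13574311-13582826. In LTHSC it was at 98.8, 76.7 and 78.6 CPM in KI, at 232, 90.8 and 232 CPM in E12 11, 2 and 4, and at 96.8, 98.1 and 82.8 CPM in VF. E12 11 and E12 4 stood above all other LTHSC, and E12 2 lay among them. E12 4 is also the library rich in neutrophil markers, which summed to 1619 CPM in E12 11. The 13 erythroid markers were also highest in E12 11 and 4, at 3668, 2568 and 3583 CPM in E12 11, 2 and 4 against 1685 to 2304 CPM in KI and VF. Hba-a1, a hemoglobin gene, was at 630, 240 and 544 CPM in those 3 libraries against 5.95 to 11.9 CPM in KI and 21.7 to 34.1 CPM in VF. The part of these markers in the Vim values was not tested. The log2 difference of E12 from KI was 1.12 (SE 0.33), and without E12 2 it was 1.45 (SE 0.21). Over 16 alternative fits it ran from 0.09 to 1.45 and was called in 2, so its size depended on the libraries and settings used. In preMegE Vim was at 158, 126 and 95.3 CPM in KI and at 97.6, 108 and 91.3 CPM in VF, which overlapped.

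In MkP, Vim was at 68.3, 157 and 88.4 CPM in KI 4, 5 and 6, at 42.3, 35.5 and 34.2 CPM in E12 2, 4 and 5, and at 31.0, 46.2 and 53.8 CPM in VF 1, 2 and 3. All KI libraries were above the others. The log2 difference from KI was -1.36 (SE 0.35; edgeR adjusted p = 0.0755) in VF and -1.60 (SE 0.36; adjusted p = 0.0616) in E12. Without MkP KI 5 and 6 it was -0.67 (SE 0.27; adjusted p = 0.413) and -0.91 (SE 0.27; adjusted p = 0.193), and without MkP KI 4 it was -1.60 (adjusted p = 0.000599) and -1.85 (adjusted p = 0.000207).

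Counted over the 10 genes, all of which passed the filter on low counts in every comparison, few differences between lines passed the edgeR test. In LTHSC, 1 member passed for VF against KI, where 0.0919% of 14152 genes did, and 1 for E12 against KI, where 0.0424% did. Both were Myl10, whose level in these groups was known when the genes were chosen. The VF count was 0 without any of KI 1, 2 and 3, E12 2 and VF 1, 2 and 3, and it was 2 without E12 4, when Tln1 also passed. The E12 count was 0 without any of KI 1, 2 and 3, E12 11 and VF 1, 2 and 3, and it was 2 without E12 2, when Vim also passed. For VF against E12 in LTHSC 0 members passed by edgeR, DESeq2 or limma, where 0.0353% of genes did by edgeR. Vim was the 1 member with an unadjusted p under 0.05 there, and it passed without E12 2.

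In preMegE, 0 members passed for VF against KI, where 0.0151% of 13231 genes did, and Myl10 was the only member with an unadjusted p under 0.05. DESeq2 called 1 member and limma 0. Myl10, Tubb1 and Actn1 were the 3 members whose libraries did not overlap, as was the case for 12.1% of all genes. In MkP, 0 members passed for VF against KI, where 0% of 13435 genes did although 3611 had an unadjusted p under 0.05. The members with an unadjusted p under 0.05 were 4, namely Myh9, Myl10, Gsn and Vim, and 6 did not overlap, these 4 with Tubb1 and Tln1, where 20.3% of all genes did not overlap. DESeq2 called 3 members and limma 0. For E12 against KI, 0 members passed, where 0% of genes did and 3899 had an unadjusted p under 0.05. Myh9, Myl9, Myl10, Gsn and Vim were the 5 members under 0.05, and 4 did not overlap, the same but for Myl9, where 23.6% of all genes did not overlap. DESeq2 called 5 members and limma 0. For VF against E12, 0 members passed and 0% of genes did, with 0 members and 167 genes at an unadjusted p under 0.05. DESeq2 and limma called 0 members there as well. Without MkP KI 4, whose TMM factor is the only ordinary one in that group, 6732 genes (48.9%) and 5 members passed for VF against KI, and 6856 genes (49.8%) and 6 members for E12 against KI. The comparisons of VF and of E12 with KI use the same KI libraries.

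**Figure D3:**
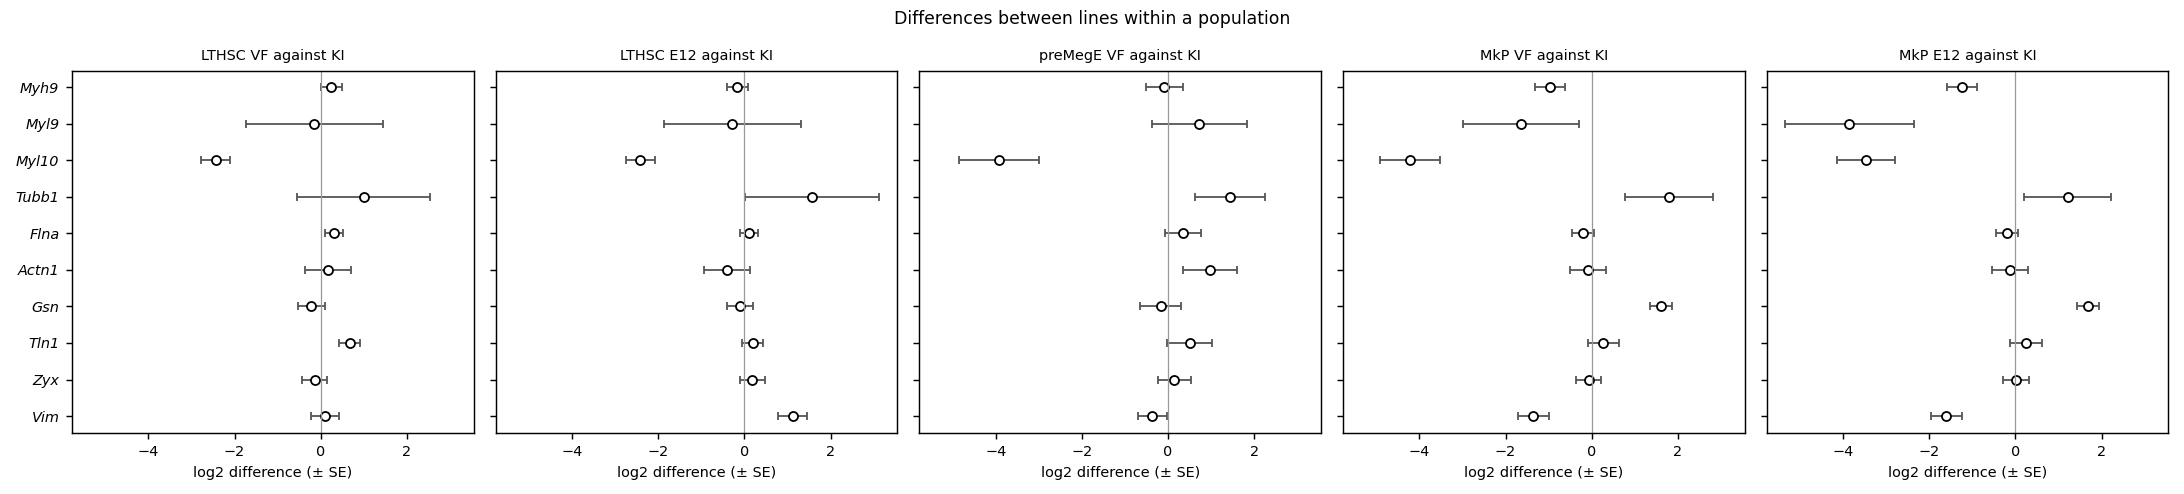
Log2 difference with its SE (x axes) of the 10 genes (y axis) for 5 comparisons of a line with KI, 1 panel each. Myl10 lies left of 0 in every panel, from -2.42 to -4.22, while Gsn is right of 0 in the MkP panels only, at 1.62 and 1.69.

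Whether a difference between lines changed from population to population was fitted over all 24 libraries. The 3 contrasts that involve LTHSC hold differences known when the genes were chosen, so their values are a description. For E12 against KI in MkP against LTHSC, the count was 1 member, Vim, where 0.0334% of 14965 genes were called. The value of Vim was -2.61 (SE 0.48), and -1.83 (SE 0.44) without the 4 libraries of low TMM factor, a fit that called 0 members and 0% of genes. Leaving out any of 18 single libraries also ended the call. Gsn had the value 1.86 (SE 0.53). For VF against KI in MkP against LTHSC, 0 members were called by edgeR, where 0.0134% of genes were, and 3 members had an unadjusted p under 0.05. Gsn was at 1.88 (SE 0.53), Vim at -1.39 (SE 0.47) and Myh9 at -1.16 (SE 0.48). Without MkP KI 4, 3 members were called for either line, where 17% of genes were for VF and 29.5% for E12. For VF against KI in preMegE against LTHSC, 0 members and 0% of genes were called by edgeR, with 0 members and 663 genes at an unadjusted p under 0.05. The contrast of MkP with preMegE holds no LTHSC library. There 0 members passed the edgeR test and 0% of genes did, with 1 member and 699 genes at an unadjusted p under 0.05. That member was Gsn, at 1.88 (SE 0.53; adjusted p = 0.934). DESeq2 and limma called 0 members in these 3 contrasts for VF.

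Between populations, averaged over the lines that both share, 3 members were higher and 2 lower in MkP than in LTHSC, where 34.7% of genes passed. The higher members were Myh9, at 114 ± 61.9 against 55.9 ± 10.5 CPM (SD, n = 9 each) and a log2 difference of 0.95 (SE 0.20), Tln1, at 0.89 (SE 0.18), and Zyx, at 0.90 (SE 0.16). The lower members were Myl10, at -3.38 (SE 0.43), and Vim, at -1.03 (SE 0.19). Without the 4 libraries of low TMM factor, Myh9 was at 0.59 (SE 0.12), Tln1 at 0.76, Zyx at 0.85, Myl10 at -4.05 and Vim at -1.22. In preMegE against LTHSC, Myl10 was the 1 member called, lower at -2.53 (SE 0.50), where 40.7% of genes passed. Without the 4 libraries it was at -3.51 (SE 0.35), and Actn1 was also called, at -0.81 (SE 0.31), where 49.8% of genes were. In MkP against preMegE, Zyx, at 1.22 (SE 0.20), and Actn1, at 1.37 (SE 0.37), were the 2 members called, where 7.54% of genes passed. Actn1 lost its call without any of preMegE VF 2, preMegE VF 3 and MkP VF 1, and without the 4 libraries 7 members were called, where 17% of genes were. The share of these members that passed is not read as a result, since the genes were chosen for their place in these populations.

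**Figure D4:**
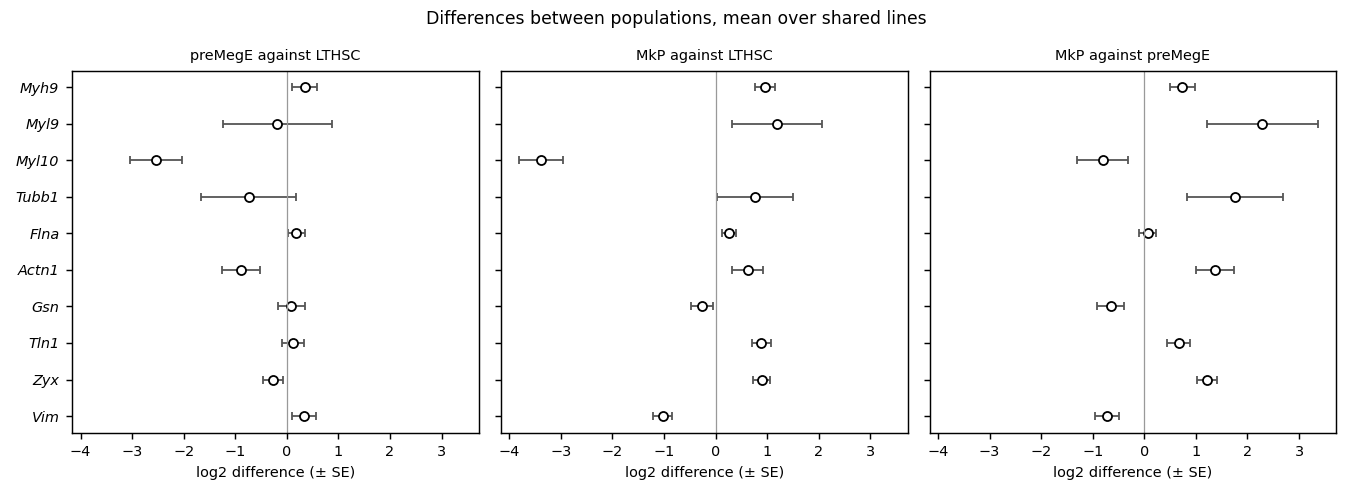
Log2 difference with its SE (x axes) of the 10 genes (y axis) between populations, each averaged over the lines that both populations share. Myl10 is lowest against LTHSC, at -2.53 in preMegE and -3.38 in MkP, while Zyx is 0.90 above LTHSC and 1.22 above preMegE in MkP.

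Compared per length, the order of the members differed from population to population. In MkP of all lines together, Zyx and Tln1 led with means of 127 and 111 FPKM (n = 9). They were followed by Flna at 34.7, Vim at 33.8, Myl10 at 22.6, Myh9 at 15.3, Gsn at 15.1, Tubb1 at 2.00, Actn1 at 1.90 and Myl9 at 1.09. The place of Myl10 in MkP depended on the line. It was at 58.8 ± 36.5 FPKM in KI, beside Vim at 57.1 and Flna at 36.4 (SD, n = 3). In E12 and VF it was at 5.76 and 3.40 FPKM, below Myh9 at 10.5 and 12.5 and Gsn at 20.3 and 19.1. In LTHSC the order depended on the line as well. Myl10 led in KI with 331 ± 82.1 FPKM, followed by Zyx at 66.7 FPKM (n = 3). In E12, Vim (101 FPKM) and Zyx (76.9) were above Myl10 (63.1), and in VF, Tln1 (78.7) was above Myl10 (62.2) and Zyx (62.1). Neighbours in these LTHSC orders of E12 and VF differed by less than the larger of their SDs. In the order over all MkP, neighbours also differed by less than the larger of their SDs over libraries. The exceptions were from Tln1 to Flna and from Gsn to Tubb1.

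The members did not move as a block. Over the 24 libraries, the pairs with the strongest positive correlation of log2 CPM were Tln1 and Zyx (Pearson 0.73, Spearman 0.68), Flna and Tln1 (0.72 and 0.67) and Actn1 and Zyx (0.67 and 0.74). Vim and Actn1 (Pearson -0.69) and Myl10 and Tln1 (-0.64) ran in opposite directions. These values share the scaling and the population of each library and are given as a description. Over the 8 group means, among 10878 genes, the gene most like Myl10 was Tcf7l2, a transcription factor of Wnt signalling (Pearson 0.990). Tcf7l2 averaged 126 ± 19.9 CPM in LTHSC of KI, 62.2 ± 9.61 in E12 and 59.5 ± 19.7 in VF (SD, n = 3 each). The next in order were Letm2 (0.983), Zscan26 (0.975), Chd2 (0.974) and Map1lc3b (0.971). For Tubb1 the closest genes were Itga5, an integrin chain for fibronectin (0.974), Strn (0.968), Slc2a9 (0.966), Ccar2 (0.964) and Rbbp5 (0.961). Among so many genes and only 8 means, high values of r occur for most patterns.

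Other genes of the same systems were taken as 8 lists, chosen with earlier results of these data known and leaving out the 10 members. By edgeR, 0 of their genes passed in any of the 7 comparisons between lines or the 4 tests of a change between populations. At an unadjusted p under 0.05, MkP had 37 of 177 genes (VF against KI) and 39 of 177 (E12 against KI), which is 20.9% and 22% beside 26.9% and 29% of all genes. LTHSC had 21 and 33 of 183 genes, which is 11.5% and 18% beside 8.11% and 13.8% of all genes. DESeq2 and limma were not counted for these lists. In MkP of VF against KI, 17 of 22 actin crosslinkers and 9 of 23 genes of nonmuscle myosin and its regulators had a positive log2 difference, with medians of 0.43 and -0.23 beside 0.01 over all genes. In E12 against KI the counts were 17 and 9, with medians of 0.45 and -0.36 beside 0.00 over all genes. Both comparisons use the same KI libraries, among them KI 5 and 6 of low TMM factor, so the second is no independent repeat. These are examples from the 8 lists, the signs of the other lists are not given, and nothing is read from them. Between populations, 34.7% of all genes passed in MkP against LTHSC, and the share of each list described is given beside its count. The lists not described further were megakaryocyte factors (75% passed), intermediate filaments and linkers (50%) and serum response factor with its cofactors (25%). In MkP against LTHSC, 12 of 30 tubulin and microtubule genes rose and 5 fell (56.7% in all), with the largest rise in Tuba8, an alpha-tubulin, at 490 against 50.6 CPM (log2 3.56, SE 0.23). Of 43 genes of actin turnover 17 rose and 4 fell (48.8%), the former including Tmsb4x, which holds actin monomers (2.63, SE 0.54). Tmsb4x averaged 6031 ± 8114 CPM in MkP against 702 ± 332 in LTHSC (SD, n = 9 each), so its level varied widely between MkP libraries. The list genes were not fitted again without the libraries of low TMM factor. Of 23 actin crosslinkers 7 rose and 6 fell (56.5%), with Lcp1, a leukocyte actin bundler, at 129 against 730 CPM (-2.55, SE 0.26). Of 31 integrin adhesion genes 7 rose and 6 fell (41.9%), and the small GTPase gene Rap1b, which acts before talin on integrins, rose by 1.97 (SE 0.34). Of 24 genes of nonmuscle myosin and its regulators 8 rose and 2 fell (41.7%), and Myh10 was among the lower (-1.06, SE 0.29). In MkP against preMegE, Myh10 fell as well (-2.60, SE 0.37). Of 31 adhesion genes 4 rose and 0 fell (12.9% beside 7.54% of all genes). Among those that rose were Vasp (1.16, SE 0.22) and Lims1 (1.13, SE 0.21), which act at the same sites as Zyx. Shares there were higher for megakaryocyte factors (41.7%), actin crosslinkers (17.4%) and nonmuscle myosin and its regulators (16.7%).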

How the data were processed

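The authors deposited raw counts per gene for 24 Smart-seq2 libraries, with gene lengths in bases. Per the submitters' processing notes, STAR 2.7.0c, featureCounts and Subread 1.6.4 were used on mm10. The annotation, strand setting and treatment of multiply mapped reads are not given in the sources used here. Library columns were matched to sample titles in 18 cases, and 6 columns named MEP were taken as preMegE by line and replicate number. Rows without a gene symbol, 16 in all, held at most 0.0132% of a library's counts. The closest of 276 library pairs differed far beyond counting noise (chi-square per degree of freedom 20.7).

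Differences were fitted by edgeR's robust quasi-likelihood method (version 4.0.16, R 4.3.3) after filterByExpr and TMM scaling, with Benjamini-Hochberg adjustment over all genes and a threshold of 0.05. The fit was also run on simulated data in which all libraries shared a common mean per gene, apart from genes set to change. That run holds no libraries with the marker differences seen here, so it cannot show how the fit treats them. Comparisons of lines were fitted within a population, and others over all 24 libraries. An SE is the log2 difference divided by the square root of F. Likeness is Pearson's r over group means of log2 CPM (prior count 2). The likeness rule names the closest genes by r among genes reaching 10 CPM in some group, and genes named from a list are examples, picked with values seen, from the up to 3 called genes per direction with the largest log2 difference. Smart-seq2 reads carry no molecular identifiers, so limits from a count of 0 cover counting error only. Alternatives were DESeq2 1.42.0, limma 3.58.1 (voom), RLE scaling, no filter, 2 groups only, a replicate block and leaving out libraries. Same-numbered libraries were not treated as pairs, since 2 of 14 pairs within a line and 2 of 11 within a population had a correlation of deviations above 0.1. The latter are preMegE KI and VF of number 1 (0.256) and number 3 (0.216), beside 0.0538 for number 2. The members, lists, tests and alternatives were chosen with earlier results of these data known.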

Additional observations from a re-analysis of the deposited data

Results flagged for a closer look

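The difference of Vim between E12 and KI, set between MkP and LTHSC, had an edgeR value of -2.61 on the log2 scale (SE 0.48) and was called in the fit over all 24 libraries. The contrast holds the LTHSC difference of Vim, which was known when the genes were chosen, so the call is no independent test. The 2 differences it compares, 1.12 in LTHSC and -1.60 in MkP, did not pass on their own, and E12 and KI overlapped in LTHSC. Without the 4 libraries of low TMM factor the value was -1.83 and was not called, and leaving out any of 18 single libraries ended the call as well. DESeq2 gave -2.76, called, and limma -2.37, not called.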

How the results depend on the processing

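Counts of members called are compared with those of the edgeR fit. For VF against KI in LTHSC, 1 became 2 without the libraries of low TMM factor, with only the 2 groups compared, and with the replicate block. For E12 against KI in LTHSC, 1 became 0 with RLE scaling, only 2 groups or the replicate block, and 2 with DESeq2. For VF against KI in preMegE, 0 became 1 with DESeq2. In MkP, VF against KI went from 0 to 3 with DESeq2 and 1 without the low-factor libraries, and E12 against KI from 0 to 3 without the count filter, 5 with DESeq2 and 1 without those libraries. For preMegE against LTHSC, 1 became 2 with RLE scaling, DESeq2 or without those libraries. For MkP against preMegE, 2 became 4 with DESeq2, 5 with limma voom and 7 without those libraries. The change of E12 against KI from LTHSC to MkP went from 1 to 2 with DESeq2 and to 0 without the count filter, with voom or without those libraries. The cause was not tested.

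With 1 library left out, the counts ran from 0 to 2 in LTHSC for either line against KI, 0 to 1 for VF against E12, 0 to 5 and 0 to 6 for VF and E12 against KI in MkP, 5 to 6 for MkP against LTHSC, 1 to 2 for preMegE against LTHSC, 1 to 5 for MkP against preMegE, and 0 to 3 for the changes of VF and of E12 from LTHSC to MkP. They stayed at 0 for VF against KI in preMegE, VF against E12 in MkP and the other 2 tests of a change. Of 3175 values of single members under the alternatives, 264 were called as in the reported fit, 2791 in neither, 76 gained a call, 44 lost it and 0 reversed. Of those in neither, 134 changed sign.

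Over all genes, DESeq2 called 251 against 13 for VF against KI in LTHSC, 438 against 6 for E12 against KI, 175 against 5 for VF against E12, 68 against 2 in preMegE, 2532 and 2846 against 0 for VF and E12 against KI in MkP, 9 against 0 for VF against E12 in MkP, 1735 against 1128 for MkP against preMegE, and 117 against 2 and 2030 against 5 for the changes of VF and E12 from LTHSC to MkP. Without MkP KI 4, edgeR called 6732 and 6856 genes for VF and E12 against KI in MkP. The replicate numbers were not treated as pairs in the reported fit, and whether they mark shared processing is not settled here. With them as a block, 704 genes were called for VF against KI in LTHSC, 10 in preMegE, and 5 and 9 for VF and E12 against KI in MkP. No paired analysis was possible for contrasts of MkP of KI with other populations because those libraries carry other numbers. Fits of the lines that share numbers were added after seeing the data. In E12 and VF alone, MkP against LTHSC had 5 members called without the block and 4 with it, when Myh9 (0.63, adjusted p = 0.0785) was lost. In VF alone, MkP against preMegE had 3 without and 3 with the block, Tubb1 and Vim gaining a call and Actn1 losing it in both. Libraries lacking counts of Tubb1 or Myl9 limit what those genes can show.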
